A study of Mus musculus with 6 samples.

Results

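The glutathione S-transferases described here are 10 mouse genes, Gsta3, Gsta4, Gstm1, Gstm2, Gstm5, Gsto1, Gstt1, Gstt2, Gstk1 and Mgst1, taken as every probe set whose platform gene symbol is exactly one of these names. They have 16 probe sets among the 20379 that name exactly 1 gene, which cover 12393 genes. A probe set is a group of short DNA probes for one transcript on an Affymetrix array (MOE430A). The cells were CD11c+ splenocytes selected with magnetic beads from untreated C57BL/6J mice at 8 weeks of age. CD11c, encoded by Itgax, is the surface integrin used to select dendritic cells. The groups were wild-type (3 arrays) and Atg16L1 hypomorphic on the same background (3 arrays). A hypomorphic allele is one that works only in part, and ATG16L1 belongs to the enzyme complex that attaches LC3 to the autophagosome membrane. The labels used here do not say where the allele lies. They also do not tie each array to a separate animal, so the p-values cover only the spread between these samples, which may be technical.

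Glutathione S-transferases join the tripeptide glutathione to reactive, electrophilic molecules such as oxidized lipids, epoxides and drugs, after which the conjugates are pumped out of the cell. Soluble forms are sorted into classes by sequence (Alpha, Mu, Omega, Theta and others), Kappa is found in mitochondria and peroxisomes, and a separate family sits in membranes. Many of these genes are known targets of the transcription factor NRF2, and they are best studied in liver, with several also expressed in macrophages.

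Atg16l1 itself read 7.05, 7.11 and 7.04 on wild-type replicates 1, 2 and 3 and 6.13, 5.84 and 6.11 on hypomorph replicates 1, 2 and 3, on the log2 scale used throughout. It fell by 1.04 without overlap (SE 0.099, adjusted p = 0.00139, limma), and whether its only probe set lies in an altered part of the gene is not known. The cell types and arrays also differed between the groups in ways that touch every result here. Of 18 measured markers of red pulp and marginal zone macrophages 17 were higher in the hypomorph and 0 lower, and the log2 of their summed signal ran from 13.95 to 14.52 in wild type and from 15.84 to 15.93 in the hypomorph. All 18 macrophage markers had mean levels above the lower quartile of probe sets. Of 9 endothelial and stromal markers 4 were lower, with summed levels from 10.20 to 11.36 in wild type and from 9.33 to 9.70 in the hypomorph, and of 6 B cell markers 4 were lower (12.30 to 12.73 and 11.65 to 12.16). Dendritic cell markers were present on all arrays, with 4 of 11 higher and 2 lower, among them Itgax with a mean of 10.32 against 9.94 in the hypomorph (adjusted p = 0.0351, a call lost when any 1 array other than wild-type replicate 2 was left out). Of the other marker lists, 2 of 9 monocyte and neutrophil genes and 1 of 5 erythroid genes were higher, and 2 of 5 platelet genes were lower. Of 7 T and NK cell genes limma called 0 (unadjusted p under 0.05 for 0). Over all 12393 genes, each by its probe set of highest mean as for the markers, 9.65% were higher and 8.32% lower. With so few genes, the counts of these other lists alone do not set a cell type apart. The poly-A spike-ins, foreign transcripts added before labelling, averaged from 8.95 to 9.96 on the wild-type arrays and from 7.58 to 7.90 on the hypomorph arrays. The hybridization controls (11.08 to 11.65 against 10.29 to 10.40), the 18S rRNA probe sets (9.30 to 9.67 against 8.71 to 8.83) and the excess of the beta-actin 3′ over its 5′ probe set, a measure of RNA integrity (0.94 to 1.02 against 0.69 to 0.77), were likewise higher on all wild-type arrays. In the titles wild-type replicate 1 alone carries a different leading number and wild-type replicate 3 alone a different array name, and whether either was run apart is not stated. The part of these differences in the transferase results was not tested. A fit with the spike-in level is given below, but that level did not overlap between the groups. Such a fit can hardly separate it from genotype. In such bulk samples fewer cells of a type and less RNA per cell cannot be told apart.

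Glutathione S-transferase genes moved in both directions between the genotypes. Gsta4, Gstk1, Gsto1 and 1 of the 2 Mgst1 probe sets rose in the hypomorph, by 1.53-fold to 3.37-fold. Gstt1 and 1 of the 2 Gsta3 probe sets fell. Of the 16 probe sets 5 were higher and 2 lower at a Benjamini-Hochberg adjusted p under 0.05 with limma, while over all 20379 probe sets 9.95% were higher and 7.73% lower. The 7 called probe sets belong to 6 of the 10 genes. The hypomorph arrays lay wholly above the wild-type arrays for 8 member probe sets, against 19% of all probe sets, and wholly below them for 4, against 20.8%. The median log2 change was 0.45 over the 16 member probe sets and -0.04 over all probe sets.

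**Figure D1:**
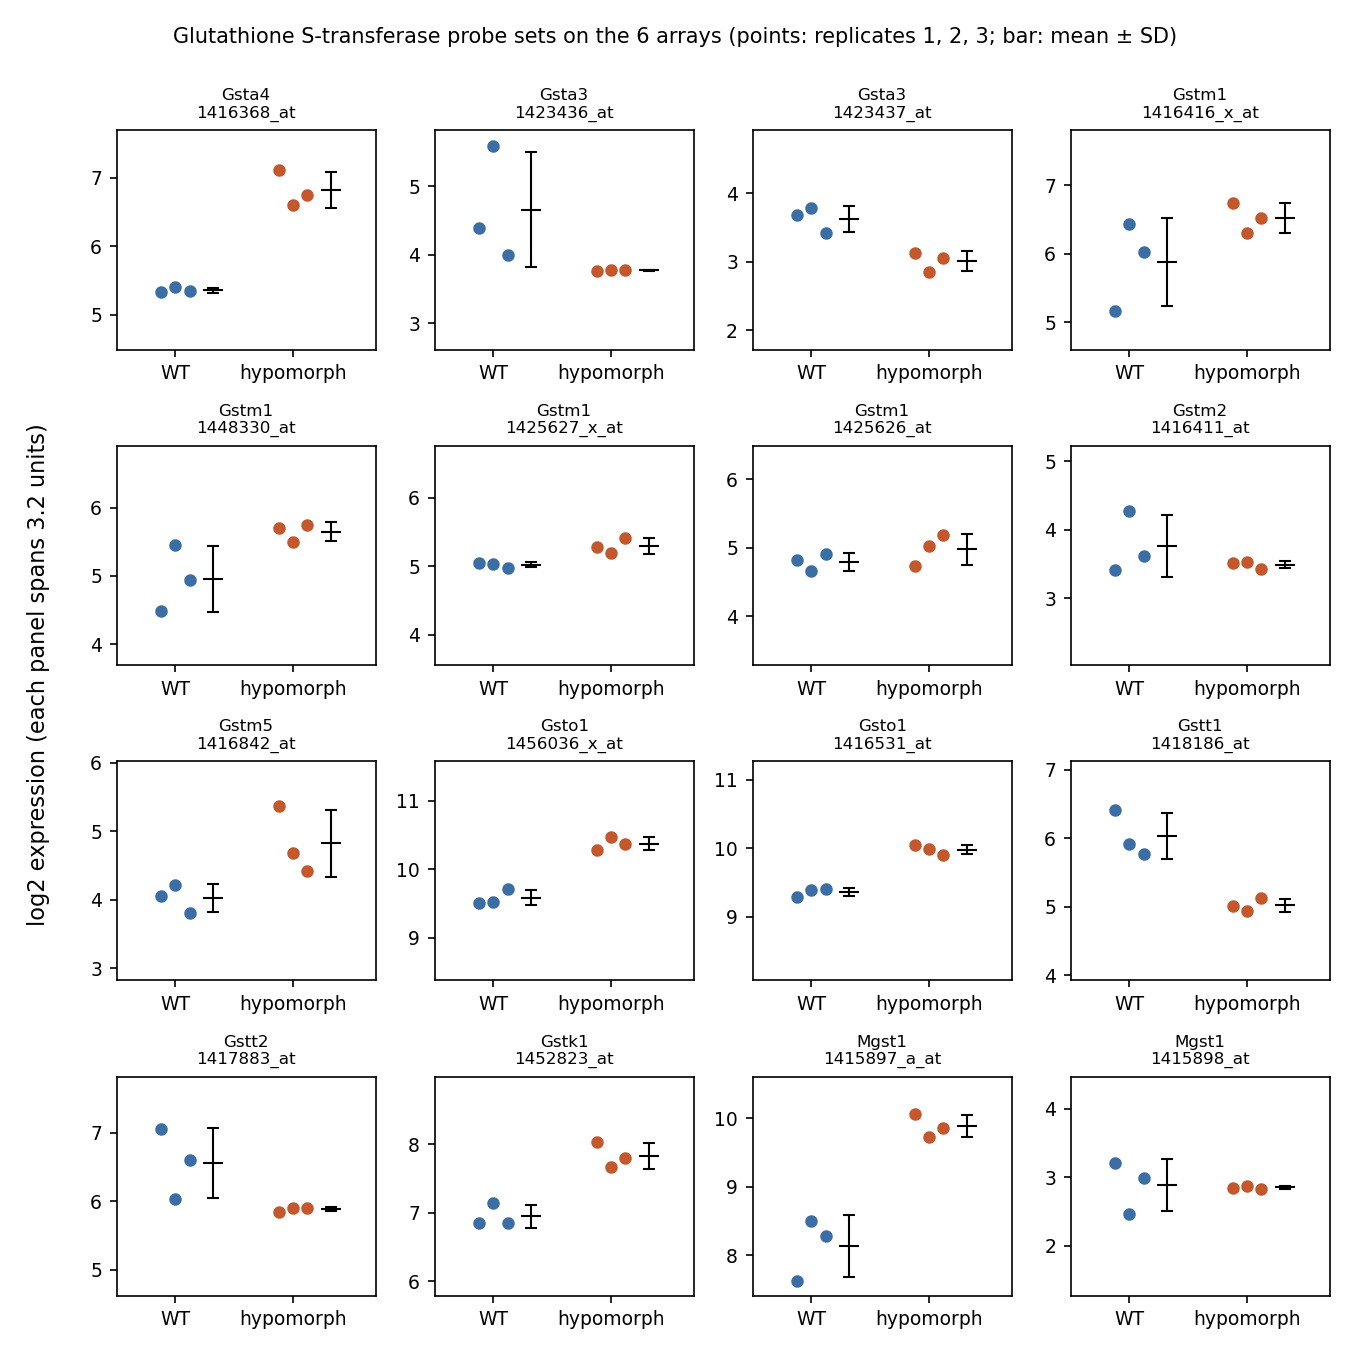
Log2 expression of each of the 16 transferase probe sets on the 3 wild-type (WT, blue) and 3 hypomorph (orange) arrays, 1 panel per probe set, with points in the order of replicates 1, 2 and 3 and black bars for the mean ± SD. Hypomorph arrays lie wholly above wild-type arrays in 8 panels (19% of all probe sets), among them Mgst1 1415897_a_at, Gsta4, Gstk1 and Gsto1. They lie wholly below in 4 (20.8% of all probe sets). Wild-type arrays scatter more than hypomorph arrays in 10 of 16 panels, against 70.3% of all probe sets.

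The membrane-bound enzyme gave the greatest increase. Mgst1 encodes a transferase of the endoplasmic reticulum and outer mitochondrial membrane that also reduces lipid hydroperoxides. Its probe set 1415897_a_at read 7.62, 8.498 and 8.27 on wild-type replicates 1, 2 and 3 and 10.06, 9.73 and 9.86 on hypomorph replicates 1, 2 and 3. The groups did not overlap, and the gap between them exceeded the range of either group. The mean went from 8.13 ± 0.45 (SD, n = 3) to 9.88 ± 0.165, a 3.37-fold rise (log2 change 1.75, SE 0.22, adjusted p = 0.00344). A second Mgst1 probe set, 1415898_at, was dim, with a mean below the lower quartile of all probe sets. It read 3.21, 2.47 and 2.99 in wild type and 2.84, 2.88 and 2.84 in the hypomorph, with overlapping groups and a change of -0.04 (95% interval -0.46 to 0.38, adjusted p = 0.903; 0.03 after quantile normalization). Mgst1 is thus called higher by 1 of its 2 probe sets, and the macrophage markers stood higher in the same 3 arrays.

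Of the Alpha class genes, Gsta4 rose and Gsta3 fell by 1 of its 2 probe sets. Gsta4 encodes an enzyme with high activity toward 4-hydroxynonenal, an aldehyde released from oxidized lipids. It read 5.32, 5.40 and 5.35 in wild type and 7.11, 6.61 and 6.75 in the hypomorph, so that the wild-type arrays were nearly equal and all hypomorph arrays lay above them. The rise was 2.76-fold (log2 change 1.47, SE 0.13, adjusted p = 0.00125), the smallest adjusted p of the 16. Gsta3 encodes the enzyme through which mice conjugate aflatoxin epoxide. Its probe set 1423437_at, a dim one, read 3.68, 3.79 and 3.42 in wild type and 3.13, 2.85 and 3.05 in the hypomorph, a 1.54-fold fall (log2 change -0.62, SE 0.12, adjusted p = 0.017). Its other probe set, 1423436_at, read 4.39, 5.59 and 3.99 in wild type and 3.76, 3.78 and 3.77 in the hypomorph. These last were nearly equal and lay below all wild-type arrays, of which replicate 2 stood highest. That change was -0.89 (95% interval -1.75 to -0.03) and did not pass (adjusted p = 0.139). Among wild-type arrays the mean of the endothelial and stromal markers was also highest on replicate 2, at 7.60 against 6.64 and 6.69 on replicates 1 and 3. So were the macrophage (9.31), B cell (8.72) and dendritic cell (10.50) marker means, while those of the other lists were not. The part of any of these cells in the Gsta3 values was not tested. The call of 1423437_at was lost without hypomorph replicate 2 (adjusted p = 0.0684) or 3 (adjusted p = 0.0618).

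Promoter windows of the described genes were searched for the core of the antioxidant response element, the site bound by NRF2 with a small MAF protein. RefSeq windows on GRCm38.p6, from 250 bases before to 50 bases after a transcript start, were matched by symbol for 8 of the 10 genes, which leaves Gsta4 and Gstt2 without one. The motif searched, on both strands and alone, was TGACNNNGC, and it occurred in windows of 3 of these 8 genes, Mgst1, Gsta3 and Gstm5, against 14% of the 27025 genes in the table. The matches are shown with 30 bases on either side, 5′ to 3′ on the plus strand, which is the coding strand of all 3 genes, with the motif in capitals. They lie at chr6:138140441-138140509 for Mgst1, chr3:107895782-107895850 for Gstm5 and chr1:21240434-21240502 for Gsta3.
Mgst1: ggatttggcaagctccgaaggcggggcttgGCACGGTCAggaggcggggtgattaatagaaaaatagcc
Gstm5: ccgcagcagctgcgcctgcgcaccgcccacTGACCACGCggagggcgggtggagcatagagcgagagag
Gsta3: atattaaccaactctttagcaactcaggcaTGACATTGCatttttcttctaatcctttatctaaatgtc
In Mgst1 the motif reads on the opposite strand and lies 56 to 48 bases before the start site, in Gstm5 42 to 34 bases and in Gsta3 121 to 113 bases. Mgst1 has another window, for a different start site (chr6:138141337-138141636), and that window held no match. The genes with a match were 1 that rose by its bright probe set (Mgst1), 1 that fell by its dim one (Gsta3) and 1 that did not pass (Gstm5). No match was found in the windows of Gsto1, Gstk1, Gstt1, Gstm1 and Gstm2, which says only that these letters are not in those windows.

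Gsto1 rose by both of its probe sets. It encodes the Omega class enzyme, which carries a cysteine in its active site and reduces dehydroascorbate and thiol adducts. Probe set 1416531_at read 9.29, 9.40 and 9.41 in wild type and 10.04, 9.999 and 9.91 in the hypomorph, and 1456036_x_at read 9.51, 9.53 and 9.72 and then 10.28, 10.47 and 10.37. In both, the arrays within a group lay close together and the groups did not overlap. The rises were 1.53-fold (log2 change 0.62, SE 0.080, adjusted p = 0.00395) and 1.725-fold (0.79, SE 0.094, adjusted p = 0.00288). The suffix x marks probe sets with probes that may also bind other transcripts, which applies to 3 of the 16.

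Gstk1 rose as well. It encodes the Kappa class enzyme of mitochondria and peroxisomes, which is related to bacterial disulfide oxidoreductases. It read 6.85, 7.13 and 6.85 in wild type and 8.04, 7.66 and 7.79 in the hypomorph, with no overlap. The mean went from 6.94 ± 0.16 to 7.83 ± 0.19 (SD, n = 3), a 1.85-fold rise (log2 change 0.89, SE 0.13, adjusted p = 0.0058). Wild-type replicate 1 was the lowest array for 4 of the 5 risen probe sets and hypomorph replicate 1 the highest for 4. In wild type the next array was close for Gsta4 (5.32 against 5.35) and Gsto1 1456036_x_at (9.51 against 9.53). Gstk1 was the exception in wild type, at 6.846 on replicate 3 against 6.852 on replicate 1. The mean of the macrophage markers was lowest on wild-type replicate 1, at 8.69 against 9.31 and 9.02 on replicates 2 and 3. For that mean the hypomorph arrays were within 10.58 to 10.66. Among wild-type arrays all other marker means except the erythroid and platelet ones were lowest on replicate 1 too, so this is not particular to macrophages. The part of any of these cells in the risen probe sets was not tested.

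Of the 2 Theta class genes Gstt1 fell in the hypomorph and Gstt2 did not pass the threshold. Theta enzymes act on small halogenated molecules and on sulfate esters. Gstt1 read 6.41, 5.91 and 5.77 in wild type and 5.0045, 4.94 and 5.12 in the hypomorph, a 2.01-fold fall with no overlap (log2 change -1.01, SE 0.17, adjusted p = 0.00905). Gstt2 read 7.05, 6.03 and 6.60 in wild type and 5.84, 5.90 and 5.89 in the hypomorph. All 3 hypomorph arrays were below the lowest wild-type array, replicate 2, by less than the wild-type arrays differed among themselves. Its change of -0.68 (95% interval -1.22 to -0.14) did not pass (adjusted p = 0.0845), and without wild-type replicate 2 it was -0.95 and passed (adjusted p = 0.00818). In the order of protein-coding genes on chromosome 10 the pair lie in a run of 4 Theta genes, Gstt3, Gstt1, Gstt4 and Gstt2. Gstt3, whose mean was below the lower quartile, had a log2 difference of -0.16 (SE 0.15, adjusted p = 0.511), and Gstt4 was not analysed here. B cell, platelet, and endothelial and stromal markers included genes that were lower in the same arrays. Among the wild-type arrays Gstt1 was highest on replicate 1 and lowest on replicate 3, the order of the platelet marker mean (6.24, 5.97 and 5.90 on replicates 1, 2 and 3), whereas the B cell mean (8.35, 8.72 and 8.64) and the endothelial and stromal mean were lowest on replicate 1. On wild-type replicates 1, 2 and 3 the poly-A spike-ins (9.96, 9.53 and 8.95) and the hybridization controls (11.645, 11.31 and 11.08) also had the order of Gstt1. The 18S rRNA probe sets (9.67, 9.30 and 9.32) did not. Gstt2 did not have the order of Gstt1 either, being lowest on replicate 2, as the 18S rRNA probe sets were. The part of these cells and controls in the Theta values was not tested.

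None of the Mu class probe sets passed the threshold. Mu enzymes conjugate epoxides and quinones, and the mouse genes form a run of 7 neighbours on chromosome 3, in the order Gstm5, Gstm7, Gstm6, Gstm3, Gstm2, Gstm1 and Gstm4, all measured. With limma 0 of their 12 probe sets passed, beside 9.95% higher and 7.73% lower over all probe sets. With 12 probe sets that count alone does not set the class apart. The same limma fit gave an unadjusted p under 0.05 for 3, of Gstm5 and Gstm1. Gstm5 read 4.05, 4.21 and 3.81 in wild type and 5.37, 4.68 and 4.42 in the hypomorph, without overlap but with a wide spread in the hypomorph. Its change of 0.80 (95% interval 0.24 to 1.36) missed the threshold (adjusted p = 0.0594) and passed after quantile normalization (adjusted p = 0.045), after centring the arrays on their medians (0.0491) and with trend and robust fitting (0.0424). Over all alternatives its adjusted p ran from 0.0424 to 1.

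The 4 probe sets of Gstm1 differed in size of change and in overlap. The brightest, 1416416_x_at, read 5.17, 6.44 and 6.03 in wild type and 6.74, 6.31 and 6.52 in the hypomorph, with overlapping groups (change 0.65, 95% interval -0.06 to 1.35, adjusted p = 0.186). Probe set 1448330_at read 4.49, 5.45 and 4.93 in wild type and 5.70, 5.49 and 5.75 in the hypomorph, so that hypomorph replicate 2 lay just above wild-type replicate 2 (change 0.69, 95% interval 0.16 to 1.22, adjusted p = 0.077). Without wild-type replicate 2 that change was 0.94 and passed (adjusted p = 0.0118). The other two, 1425627_x_at and 1425626_at, had log2 differences of 0.28 (adjusted p = 0.0665) and 0.18 (adjusted p = 0.387), the first with no overlap. On both of the first probe sets wild-type replicate 1 was lowest and replicate 2 highest. The marker means of macrophages, dendritic cells, B cells, and endothelial and stromal cells all had that order, and those of the other lists did not. Nor did the other Gstm1 probe sets, with 5.044, 5.039 and 4.976 for 1425627_x_at and 4.82, 4.65 and 4.91 for 1425626_at in wild type. The part of any of these cells in the Gstm1 values was not tested. Gstm2 was dim, at 3.41, 4.27 and 3.61 in wild type and 3.52, 3.53 and 3.43 in the hypomorph, with overlap and a change of -0.27 (95% interval -0.76 to 0.22, adjusted p = 0.412). Mu genes are close in sequence, so a probe set named for one may also report its neighbours.

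**Figure D2:**
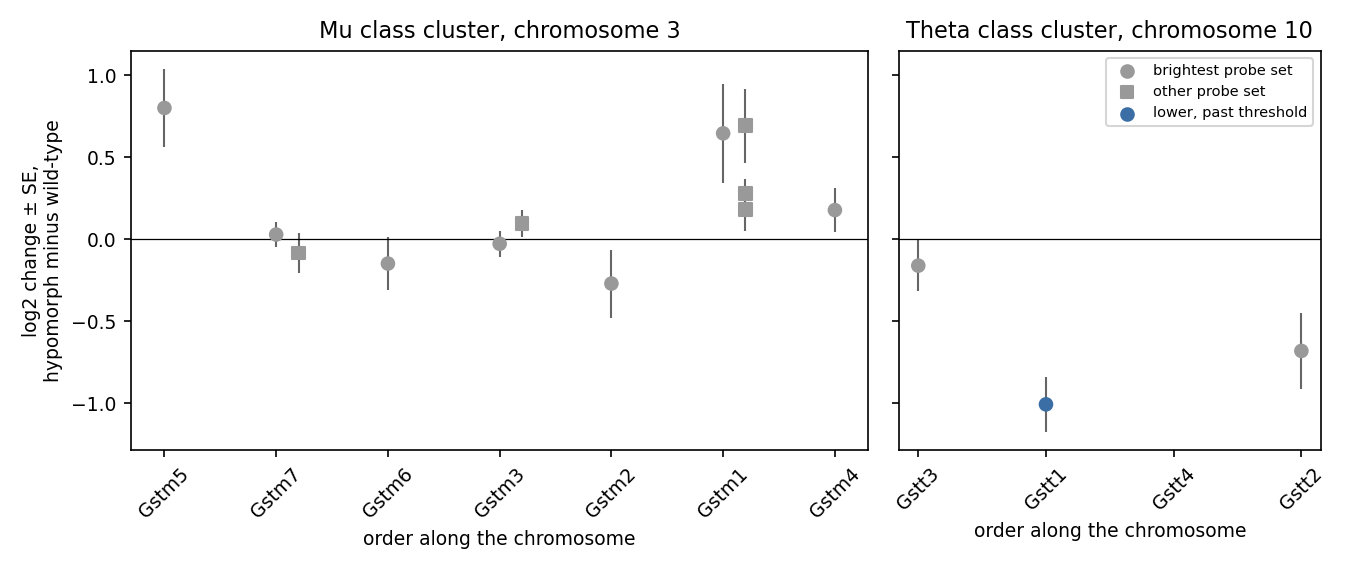
Log2 change (hypomorph minus wild-type, ± SE) of every probe set of the Mu genes on chromosome 3 and the Theta genes on chromosome 10, in gene order, with circles for the brightest probe set of a gene and squares for others. Gstt1 is the only probe set past the threshold (blue), and the Mu genes between Gstm5 and Gstm1 lie near 0 or below it, from -0.27 to 0.10.

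All 5 risen probe sets and Gstt1 kept an adjusted p under 0.05 when any 1 array was left out, while the lower members numbered 3 without wild-type replicate 2 and 1 without hypomorph replicate 2 or 3. With the mean poly-A spike-in level as a covariate no probe set passed with limma (1932 of all and 3 members at an unadjusted p under 0.05). The median SE went from 0.11 to 0.295. The spike-in level did not overlap between the groups, so this fit can hardly separate it from genotype. Changes in this fit were 1.72 for Gsta4, 1.15 for Gstk1, 0.996 for Mgst1 1415897_a_at, 0.50 and 0.36 for Gsto1, -0.06 for Gsta3 1423437_at and -0.04 for Gstt1.

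**Figure D3:**
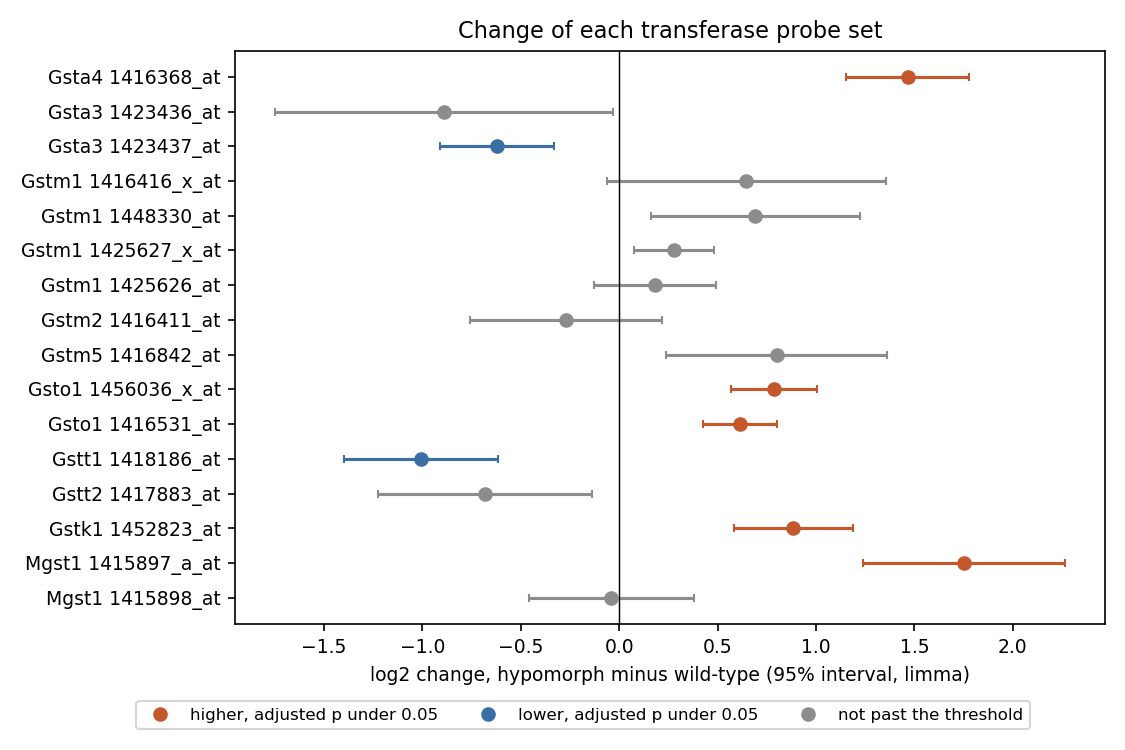
Log2 change of each transferase probe set, hypomorph minus wild-type, with its 95% interval from limma; orange marks higher and blue lower at an adjusted p under 0.05, grey the 9 probe sets that did not pass. Mgst1 1415897_a_at (1.75) and Gsta4 (1.47) lie farthest to the right and Gstt1 (-1.01) farthest to the left, and 5 of the 9 grey intervals do not reach 0.

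The probe sets of other genes whose profile over the 6 arrays was most like that of Gsta4, by root mean square difference of log2 values after centring each on its mean, were those of H1f2 (0.091), Apoc1 (0.095) and Hpgd (0.102). H1f2 encodes a linker histone, Apoc1 an apolipoprotein and Hpgd the dehydrogenase that inactivates prostaglandins. Their log2 differences of 1.45, 1.36 and 1.497 lie near that of Gsta4 because they were chosen for this likeness.

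Of the other transferases in the family, 1 of 12 measured genes rose and 0 fell, with each gene represented by its brightest probe set; over all 12393 genes taken this way 9.65% were higher and 8.32% lower. The riser was Hpgds, which encodes the Sigma class enzyme that makes prostaglandin D2. It read 5.87, 6.08 and 5.73 in wild type and 7.60, 7.32 and 7.28 in the hypomorph, a 2.84-fold rise without overlap (log2 change 1.51, SE 0.13, adjusted p = 0.00115). Gstp1, the Pi class enzyme, averaged 10.54 ± 0.02 and 10.60 ± 0.02 (SD, n = 3; difference 0.06, SE 0.070, adjusted p = 0.598; -0.02 after quantile normalization). Mgst2, a membrane relative of Mgst1 and the uncalled gene of largest difference, had a log2 difference of -0.41 (SE 0.14, adjusted p = 0.0846). Without wild-type replicate 2 it was called lower (-0.57, adjusted p = 0.00927), and without wild-type replicate 1 a second gene of the 12 was higher. The median change of these 12 genes was -0.0023, beside 0.72 for the 10 described genes and -0.05 for all genes.

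Of 14 genes for glutathione synthesis and turnover 3 rose and 0 fell, beside 9.65% higher and 8.32% lower over all genes. Their median change was 0.09, beside -0.05 for all genes. Gclm, the modifier subunit of the rate-limiting ligase, rose 1.87-fold from 7.66 ± 0.07 to 8.56 ± 0.16 (SD, n = 3; adjusted p = 0.00244). The catalytic subunit gene Gclc, named after its value was seen, was at 8.75 and 8.72 (change -0.04, adjusted p = 0.78). Slc3a2, the shared heavy chain of several amino acid exchangers including that for cystine, rose 1.75-fold (adjusted p = 0.0041), and Gss, which completes glutathione, rose 1.36-fold (adjusted p = 0.0128), a call lost without hypomorph replicate 1 or 3. Oplah, which recycles 5-oxoproline, had the largest change among those that did not pass, at 0.35 (SE 0.16, adjusted p = 0.169).

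Of 12 genes for glutathione reduction and peroxide removal 3 rose and 0 fell, beside 9.65% higher and 8.32% lower over all genes. Their median change was 0.18. Gsr, which regenerates reduced glutathione, rose 1.697-fold from 7.70 ± 0.34 to 8.46 ± 0.10 (adjusted p = 0.0241), the thioltransferase gene Glrx 1.32-fold (adjusted p = 0.0243) and Txndc12, a thiol oxidoreductase gene of the endoplasmic reticulum, 1.40-fold (adjusted p = 0.0227). The second probe sets of Gsr and Glrx were also higher (adjusted p = 0.0388 and 0.00344). The peroxidase gene Gpx3 had a log2 difference of -0.87 and did not pass (SE 0.34, adjusted p = 0.127). Without any 1 hypomorph array 0 of these 12 genes were higher with limma, and without wild-type replicate 3 only 1 was higher and 1 lower.

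Transporters that export conjugates held 2 risen genes of 5, beside 9.65% higher over all genes. Abcc3 read 8.29, 8.90 and 8.60 in wild type and 10.20, 9.85 and 10.02 in the hypomorph, a 2.69-fold rise without overlap (adjusted p = 0.00269). Abcc5 rose 1.67-fold by its brightest probe set (adjusted p = 0.00848), and 3 of its 6 other probe sets were also higher. Abcc2, a dim gene, had a log2 difference of -0.26 (adjusted p = 0.262), and the median over the 5 genes was -0.05.

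Among 13 regulators of the NRF2 and aryl hydrocarbon receptor pathways 1 rose and 1 fell, near the shares of 9.65% and 8.32% over all genes. Maff, a small MAF partner of NRF2, rose 1.99-fold from 6.29 ± 0.35 to 7.28 ± 0.16 (adjusted p = 0.0122), and Bach2, a repressor that binds the same type of site and is abundant in B cells, was 1.996-fold lower (7.85 ± 0.10 to 6.85 ± 0.28, adjusted p = 0.00622) in arrays where 4 of 6 B cell markers were lower. Maff was not called without hypomorph replicate 1 or 3, and 2 regulators rose without hypomorph replicate 2 or wild-type replicate 3. Ahr, the receptor gene, was 0.45 higher and did not pass (adjusted p = 0.0525). Of 17 NRF2 target genes outside glutathione metabolism 9 rose and 0 fell, with a median change of 0.33. The haem oxygenase gene Hmox1 rose 5.46-fold, the biliverdin reductase gene Blvrb 2.53-fold (adjusted p = 0.000949), the ferritin heavy chain gene Fth1 1.82-fold, the thioredoxin reductase gene Txnrd1 1.82-fold, the carbonyl reductase gene Cbr1 1.41-fold and the thioredoxin gene Txn1 1.40-fold, while Akr1b8 had a log2 difference of -0.77 and did not pass (adjusted p = 0.205). This count was 4, 5 and 4 when hypomorph replicate 1, 2 or 3 was dropped. Hmox1, Blvrb and Fth1 also serve haem and iron handling in macrophages, whose markers were higher in the same arrays. The part of macrophages in the rises of these or the other target genes was not tested.

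**Figure D4:**
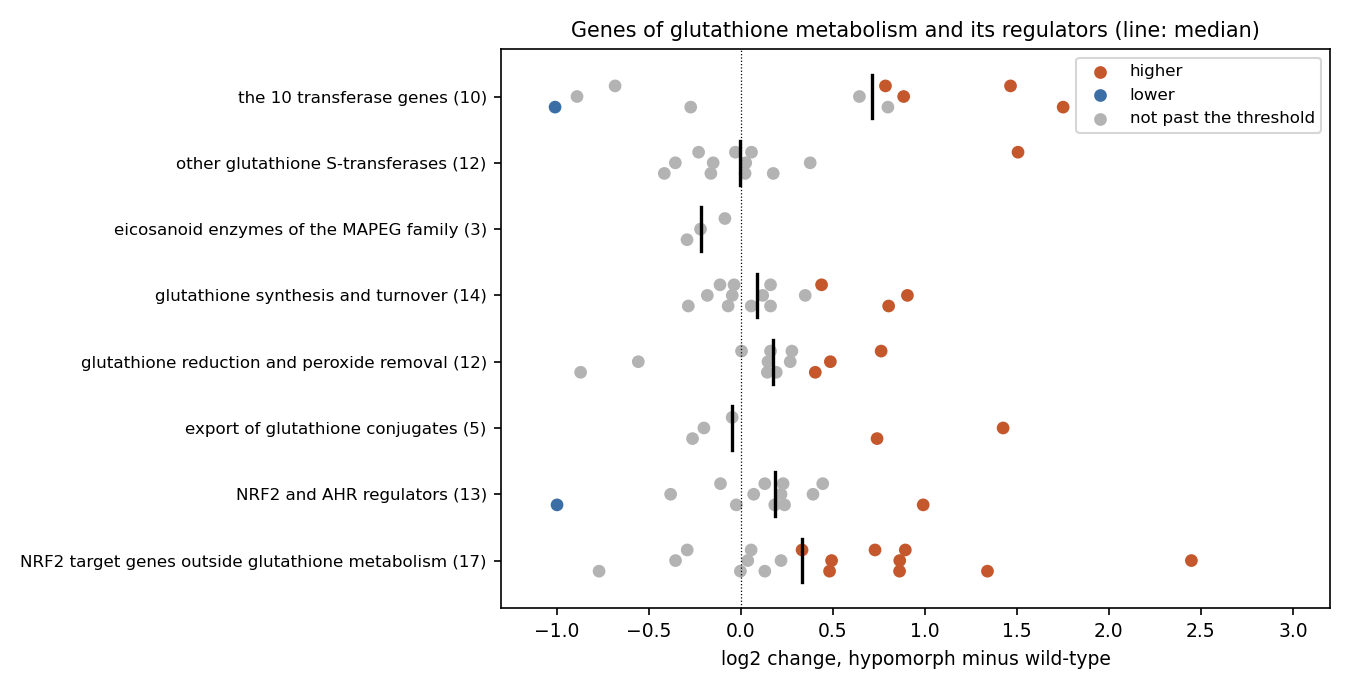
Log2 change (hypomorph minus wild-type) of each measured gene, by its brightest probe set, in the 10 transferase genes and 7 other lists, with the number of genes in brackets, a line at the median, and colour for genes past the threshold. The transferase row spans -1.01 to 1.75 with a median of 0.72, and 9 of the 17 NRF2 target genes are past the threshold, all to the right.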

How the data were processed

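Per the submitters' processing notes, the authors made the deposited values with Affymetrix Power Tools; its version and the steps it ran were not given in the sources used here. What was deposited is a log2 value for each probe set on each array; the log base and normalization between arrays were inferred from their range (1.96 to 14.33) and close quartiles. Array number limits the precision. Genes were named from the platform annotation, and 20350 of 20379 single-gene probe sets matched RefSeq gene IDs. Of the others, 64 were controls, 691 named several genes, 1555 none, and 1 had no value. All 20379 were fitted with limma 3.58.1 in R 4.3.3 (lmFit, eBayes, two-sided, no covariate or filter), tested on simulated data first, with Benjamini-Hochberg adjustment over all. Tables and plots used Python 3.11.15, pandas 2.3.3 and matplotlib 3.10.9. No 2 arrays were identical (highest correlation 0.9974). Named genes are the members, Atg16l1, up to 6 called genes per list by p, 1 uncalled gene of largest change per list, and the 3 profiles nearest the member of smallest adjusted p; Gstp1, Gstt3, Gclc, Alox5ap, Ptges and Itgax were named outside this rule after their values were seen. Members and lists were chosen with earlier results of these data known.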

Additional observations from a re-analysis of the deposited data

How the results depend on the processing

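The count of member probe sets that were higher, 5 as reported, was 4 to 7 in every setting run except 2 fits. It was 2 when a change of more than 1.5-fold was required and 0 with the spike-in covariate, in which limma called 0 of all probe sets (1932 at an unadjusted p under 0.05). The count of lower members, 2 as reported, was 1 above the lower quartile of level, 0 above the median level, 1 with 1 probe set per gene or with a gene's probe sets averaged, 3 with array weights, 0 with the 1.5-fold minimum and 0 with the covariate. Leaving out 1 array gave 5 to 6 higher and 1 to 3 lower members, and 1279 to 3544 of all probe sets against 3604 in the full set. Called probe sets in all were 2260 with 1 probe set per gene and 2247 with averaged probe sets, which test fewer features, and 215 with the 1.5-fold minimum. With the replicate number as a block they were 2214, with 5 higher and 2 lower members. Same-numbered arrays deviated together with correlations of 0.159, 0.019 and 0.1, and wild-type replicate 2 correlated best with hypomorph replicate 3 (0.051), so the numbers were not taken to pair the arrays. Signs turned with the covariate for Gstm1 1416416_x_at (-0.36) and 1425626_at (-0.22), Mgst1 1415898_at (0.195), Gpx3 (0.495), Abcc2 (0.42), Ahr (-0.15), Txnrd1 (-0.066), Gstt3 (0.398), Gclc (0.167) and Alox5ap (0.424); the cause was not tested. After quantile normalization Mgst1 1415898_at was 0.031 and Gstp1 -0.024. With 1 array left out Mgst1 1415898_at ran from -0.25 to 0.121, Ltc4s from -0.48 to 0.012, Gclc from -0.067 to 0.0033 and Alox5ap from -0.15 to 0.0017. Dim probe sets such as those of Gstm2, Gsta3 and the second of Mgst1 limit what can be read from them.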

Other observations

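The 3 measured enzymes related to Mgst1 that work in leukotriene and prostaglandin synthesis did not pass the threshold. Alox5ap, which presents arachidonic acid to 5-lipoxygenase, averaged 11.21 ± 0.155 (SD, n = 3) in the wild-type arrays against 11.12 ± 0.12 in those of the hypomorph. Ltc4s, the leukotriene C4 synthase, had a log2 difference of -0.29 (SE 0.24, adjusted p = 0.446) and Ptges, the inducible prostaglandin E synthase, one of -0.22 (SE 0.079, adjusted p = 0.1). With limma 0 of the 3 passed, and 1, Ptges, had an unadjusted p under 0.05.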
